A study of Mus musculus with 20 samples.

Results

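The 10 genes described here encode acute-phase proteins (Saa3, Lcn2, Hp, C3, Ptx3), chemokines (Ccl2, Ccl7, Cxcl1, Cxcl5) and the cytokine Il6, out of 26722 genes in a count table of C2C12 myotubes. They were chosen by their measured values: Saa3, Lcn2 and Hp had been seen to vary widely between libraries, and in particular between replicates 1 and 2 and replicates 3 and 4, and the other 7 were added as genes of the same acute-phase and chemokine programme. All 10 passed the filter on low counts and belong to the 14605 genes tested. C2C12 is a mouse myoblast line that fuses into myotubes in low serum, and these cells had differentiated for 5 days before 16 h of treatment. Every library was exposed to an antibody at 7.7 nM. In the control this was b12, a human IgG4 that serves as the negative control. In the bivalent group it was the human IgG4 13-3B5, which activates MuSK, the receptor kinase of the neuromuscular synapse. Neural agrin, which naturally activates MuSK, was present at 0.1 nM in the remaining 3 groups. They had b12 (the agrin group), 13-3B5xb12 or 11-3F6xb12 beside it, the last 2 being monovalent MuSK antibodies labelled as inhibiting. There were 4 biological replicates per treatment and 20 libraries. What a replicate number stands for is not given in the labels, the division into 2 replicate sets (1 and 2, 3 and 4) was seen in the data, and p-values measure the spread between cultures of 1 cell line.

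Acute-phase genes are best known from the liver, where interleukin 1 acting through NF-kappa B and interleukin 6 acting through STAT3 and C/EBP factors raise them during inflammation. Muscle cells in culture also make several of these proteins and secrete chemokines that attract monocytes and neutrophils. Saa3 is the serum amyloid A form made mainly outside the liver, Lcn2 binds iron-carrying siderophores, Hp (haptoglobin) binds free haemoglobin, C3 is the central complement protein and Ptx3 is a long pentraxin of innate immunity.

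On GRCm38 in GENCODE M21 the acute-phase genes lie apart: Saa3 at chr7:46711998-46715700, Lcn2 at chr2:32384633-32388252, Hp at chr8:109575128-109579172 and C3 at chr17:57203970-57228136, all on the minus strand, and Ptx3 at chr3:66219910-66225805 on the plus strand. The chemokines lie in pairs on the plus strand. Ccl2 (chr11:82035571-82037453) and Ccl7 (chr11:82045712-82047525) are separated by 8258 bases with 0 protein-coding genes between them. Cxcl5 (chr5:90759360-90761624) and Cxcl1 (chr5:90891241-90893115) are separated by 129616 bases with 4 protein-coding genes between them, and Il6 lies elsewhere on that chromosome (chr5:30013114-30019981, plus strand). Ccl2 and Ptx3 overlap genes on the opposite strand (Gm17268 and Veph1) and C3 overlaps the miRNA gene Mir6978 on its own strand. Whether the authors' counting used strand is not given in the sources used here, so the values of these members are uncertain to that extent. The same holds for reads that Saa3 could share with its paralogs Saa1 and Saa2, which had mean values of only 0.0844 and 0.322 CPM (counts after scaling libraries to equal size and composition).

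Because most members were higher in the same libraries, the sequences before their start sites are shown with the letters of 4 motifs of inflammatory transcription factors. RefSeq promoter windows of GRCm38.p6, from 250 bases before to 50 bases after the start, were found for 6 of the 10 genes: Saa3, Lcn2, C3, Cxcl1, Il6 and Ptx3. Both strands were searched for the kappa B consensus, a C/EBP motif (TTGCNNAA), an AP-1 motif (TGANTCA) and a STAT motif (TTCNNNGAA). These occur in 8.46%, 10.8%, 7.81% and 8.30% of the 32851 windows in the table. The acute-phase windows of Saa3, Lcn2 and C3 each hold 1 C/EBP match and that of Cxcl1 holds 2 overlapping kappa B matches on opposite strands. All 4 are printed 5′ to 3′ on the strand of the gene, with the matches in capitals (Saa3 chr7:46715627-46715926, Lcn2 chr2:32387690-32387989 and C3 chr17:57228087-57228386 on the minus strand, Cxcl1 chr5:90890995-90891294 on the plus strand).
Saa3: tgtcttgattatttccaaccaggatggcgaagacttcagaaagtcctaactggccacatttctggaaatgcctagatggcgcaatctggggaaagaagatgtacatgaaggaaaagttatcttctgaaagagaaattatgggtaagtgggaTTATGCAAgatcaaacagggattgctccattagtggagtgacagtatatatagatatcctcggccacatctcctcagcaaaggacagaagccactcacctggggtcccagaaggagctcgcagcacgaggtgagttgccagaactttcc
Lcn2: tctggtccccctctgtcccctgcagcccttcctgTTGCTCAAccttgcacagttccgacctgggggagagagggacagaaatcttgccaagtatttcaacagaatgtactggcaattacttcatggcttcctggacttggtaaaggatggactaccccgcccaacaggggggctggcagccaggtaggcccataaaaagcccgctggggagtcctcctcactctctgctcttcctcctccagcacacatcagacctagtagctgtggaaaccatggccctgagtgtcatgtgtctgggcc
C3: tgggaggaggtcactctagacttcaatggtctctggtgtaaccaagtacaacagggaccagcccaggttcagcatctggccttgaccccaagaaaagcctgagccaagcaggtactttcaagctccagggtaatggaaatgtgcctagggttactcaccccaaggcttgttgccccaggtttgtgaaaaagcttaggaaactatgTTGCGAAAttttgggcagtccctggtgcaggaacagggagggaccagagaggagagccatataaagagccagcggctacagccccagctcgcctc
Cxcl1: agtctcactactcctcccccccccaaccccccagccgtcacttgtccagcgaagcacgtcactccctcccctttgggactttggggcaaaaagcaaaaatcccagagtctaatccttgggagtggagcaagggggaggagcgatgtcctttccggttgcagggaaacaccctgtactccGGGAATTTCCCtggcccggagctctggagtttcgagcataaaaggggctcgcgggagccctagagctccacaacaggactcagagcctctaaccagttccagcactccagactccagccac
The C/EBP letters begin at -99 in Saa3, at -216 in Lcn2 and at -45 in C3, counted from the start site, and the kappa B letters begin at -71 in Cxcl1. The Il6 window holds 1 kappa B match (GGGATTTTCC at -44), 1 C/EBP match and 1 AP-1 match, and that of Ptx3 holds 2 overlapping kappa B matches and 1 C/EBP match. None of the 6 windows holds the STAT letters. A match is a description of the letters only.

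The chemokines and Saa3 were abundant and Hp, Lcn2, Il6 and Ptx3 were not. Divided by exon length, the mean over 20 libraries was 248 CPM per kb for Cxcl5, 115 for Saa3, 89.6 for Ccl7, 81.1 for Cxcl1 and 80.8 for Ccl2. C3 followed at 16.8 CPM per kb. Hp at 1.83, Lcn2 at 0.953, Il6 at 0.334 and Ptx3 at 0.258 CPM per kb were the low members. Several neighbours in this order, such as Cxcl1 and Ccl2 or Il6 and Ptx3, differ by less than their spread between libraries, so their order is not settled. Total counts per library ranged from 18424881 to 23343903, so that 3 counts, taken as the limit of detection, correspond to between 0.125 and 0.161 CPM.

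Saa3, Lcn2 and Hp were low in replicates 1 and 2 and high in replicates 3 and 4 under nearly every treatment. For Saa3 the values in replicates 1, 2, 3 and 4 were 169, 153, 465 and 393 CPM in the control and 185, 186, 449 and 419 CPM with agrin. With bivalent 13-3B5 Saa3 was at 286, 159, 485 and 423 CPM. In each of these 3 treatments both libraries of replicates 3 and 4 lay above both of replicates 1 and 2. With agrin and 13-3B5xb12 Saa3 was at 112, 314, 451 and 495 CPM, and with agrin and 11-3F6xb12 at 109.9, 88.8, 250.2 and 401 CPM. The separation thus held within all 5 treatments, although the replicate 3 library of the last group stayed below replicate 2 of the group before it. The mean was 176 ± 73.1 CPM (SD, n = 10) in replicates 1 and 2 and 423 ± 69.4 CPM (SD, n = 10) in replicates 3 and 4, a log2 difference of 1.30 (SE 0.17).

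Lcn2 showed the widest separation. In replicates 1 and 2 its values ran from 0.136 to 1.32 CPM with a median of 0.606, and 3 of these 10 libraries (both of agrin and 1 of agrin with 11-3F6xb12) held just 3 counts. In replicates 3 and 4 they ran from 1.64 to 7.82 CPM with a median of 3.94. The 2 sets did not overlap, which was the case for 0.541% of the genes tested in this direction and for no other member. The means were 0.614 ± 0.449 and 4.39 ± 1.68 CPM (SD, n = 10 each), a ratio of 7.14. The log2 difference of 2.99 (SE 0.28) was the largest of all 14605 genes.

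Hp followed the same division except in 1 treatment. Control libraries held 1.72, 0.976, 5.93 and 3.62 CPM of Hp in replicates 1, 2, 3 and 4, and those of bivalent 13-3B5 held 3.17, 0.865, 5.66 and 4.24 CPM. Agrin libraries held 1.55, 0.704, 4.77 and 5.37 CPM. These 3 treatments showed the separation. With agrin and 13-3B5xb12 Hp was at 1.92, 1.88, 5.00 and 7.81 CPM, but with agrin and 11-3F6xb12 it was at 0.579, 0.742, 0.501 and 1.88 CPM. The replicate 3 library of that last group was the lowest of all 20 for Hp, so that group's 2 replicate sets overlapped. The log2 difference over all treatments was 1.62 (SE 0.24). For Saa3, Lcn2 and Hp these values are what drew attention to the genes, and no p-value is given for them.

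**Figure D1:**
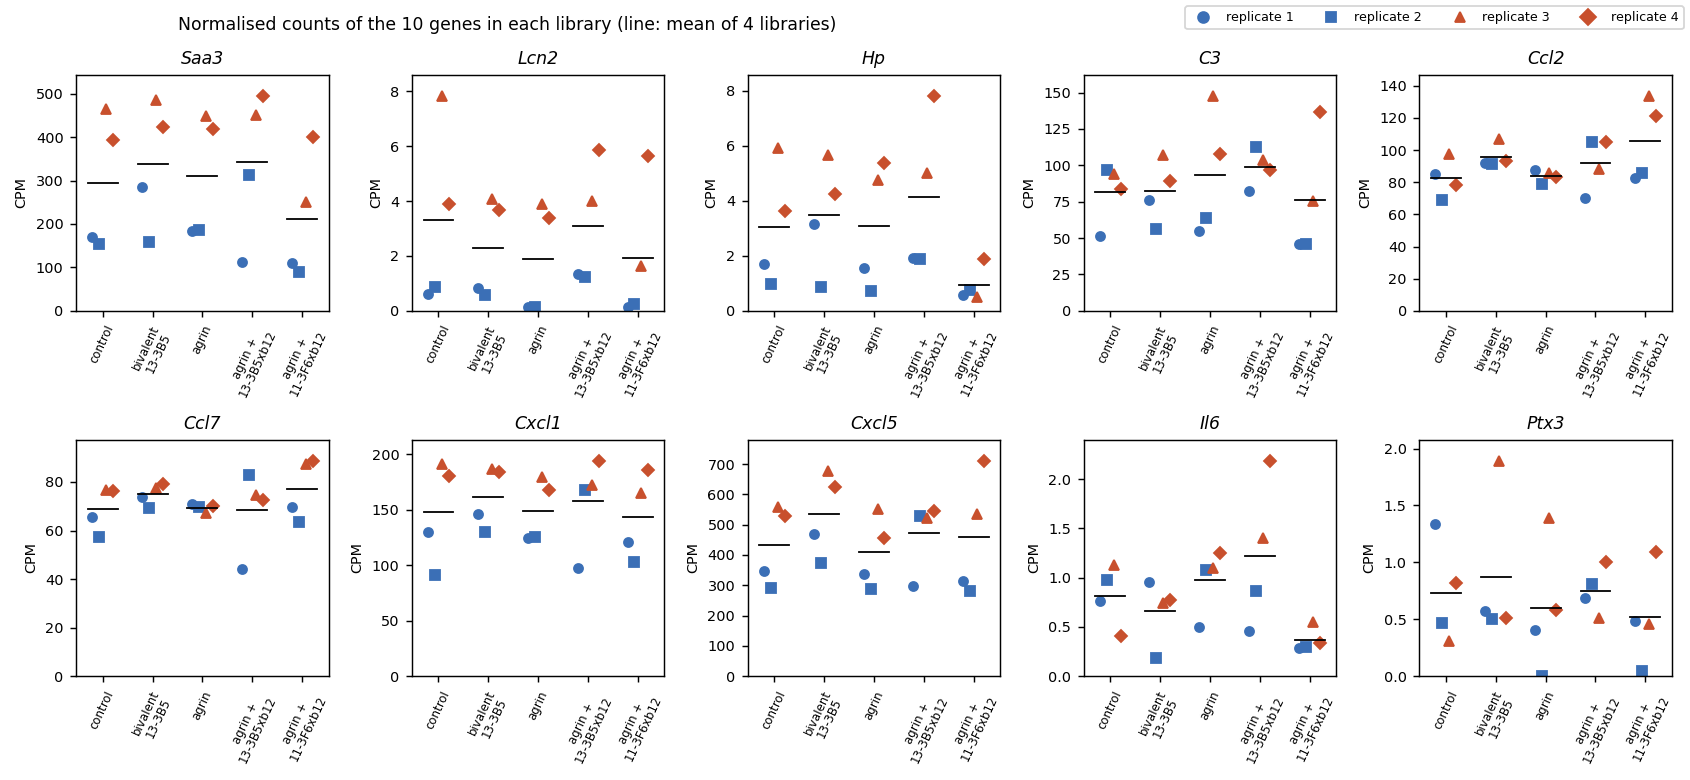
CPM of each of the 10 genes (y axis, linear from 0) in every library, by treatment (x axis); circles and squares are replicates 1 and 2, triangles and diamonds replicates 3 and 4, and the line is the mean of 4 libraries. Saa3, Lcn2 and Hp are low in the blue libraries and high in the red ones, except Hp with agrin and 11-3F6xb12, which stays at or under 1.88 CPM.

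Among the other 7 members, C3 and the CXC chemokines Cxcl1 and Cxcl5, which attract neutrophils, were higher in replicates 3 and 4 with edgeR's quasi-likelihood test and Benjamini-Hochberg adjustment over all genes. The p-values of this contrast, here and below, are not independent evidence. Its split was seen in the data and the members were proposed with it in view. They also take all libraries of a set as independent, although libraries of 1 replicate number may share a culture. Cxcl1 ranged from 91.5 to 168 CPM (median 125) in replicates 1 and 2 and from 165 to 193 CPM (median 182) in replicates 3 and 4. Only its agrin with 13-3B5xb12 replicate 2 library lay inside the upper range. The log2 difference was 0.55 (SE 0.09, adjusted p = 2.06e-04). Cxcl5 ranged from 282 to 529 CPM (median 326) against 455 to 709 CPM (median 549.7), a log2 difference of 0.70 (SE 0.11, adjusted p = 3.20e-04). For C3 the ranges were 46.2 to 113 CPM (median 60.0) and 75.5 to 148 CPM (median 100.4), and they overlapped more. Its log2 difference was 0.63 (SE 0.18, adjusted p = 0.0283), and it missed the threshold, at an adjusted p between 0.0511 and 0.0616, without any 1 of 8 libraries: replicates 1 of control, agrin and agrin with 11-3F6xb12, replicates 2 of bivalent 13-3B5, agrin and agrin with 11-3F6xb12, and replicates 3 of bivalent 13-3B5 and agrin.

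The CC chemokines Ccl2 and Ccl7, which attract monocytes, differed far less between the replicate sets. Ccl2 was at 84.8 ± 10.6 CPM in replicates 1 and 2 and at 99.2 ± 17.7 CPM in replicates 3 and 4, and Ccl7 at 66.6 ± 10.3 and 77.0 ± 6.80 CPM (SD, n = 10 each). The log2 differences, 0.21 for both, had edgeR adjusted p-values of 0.0874 and 0.0900. Without the agrin with 13-3B5xb12 replicate 2 library, in which both stood high, the edgeR adjusted p-values were 0.0107 and 0.00161. DESeq2's Wald test with all libraries gave 0.0313 and 0.0447. Il6, which signals through STAT3, was at 0.636 ± 0.329 and 0.986 ± 0.554 CPM and Ptx3 at 0.531 ± 0.378 and 0.855 ± 0.495 CPM (SD, n = 10 each). Their log2 differences of 0.57 (95% interval -0.16 to 1.29) and 0.80 (95% interval -0.17 to 1.76) did not pass (edgeR adjusted p = 0.355 and 0.322). Ptx3 had 0 counts in 1 library and 1 count in another.

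Of the 7 members other than Saa3, Lcn2 and Hp, 3 were thus called higher in replicates 3 and 4 and 0 lower, beside 5.93% of all genes tested called higher and 7.13% called lower. Since the members were proposed with this contrast in view, nothing is read from the count. When the 5 libraries of a replicate number were summed, which leaves 2 sums against 2 and matches the case in which a number marks a shared culture, edgeR also called Ccl2 and Ccl7. The shares of all genes above do not belong to that fit, and its own share is not given here. Its split was also seen in the data, so nothing is read from these calls either. The replicate set accounted for 76.1% of the sum of squares of log2 CPM in Lcn2, 70.9% in Saa3, 69.8% in Cxcl1 and 68.1% in Cxcl5, and for 13.2% in Il6 and 14.7% in Ptx3. The median over all genes was 6.60%.

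**Figure D2:**
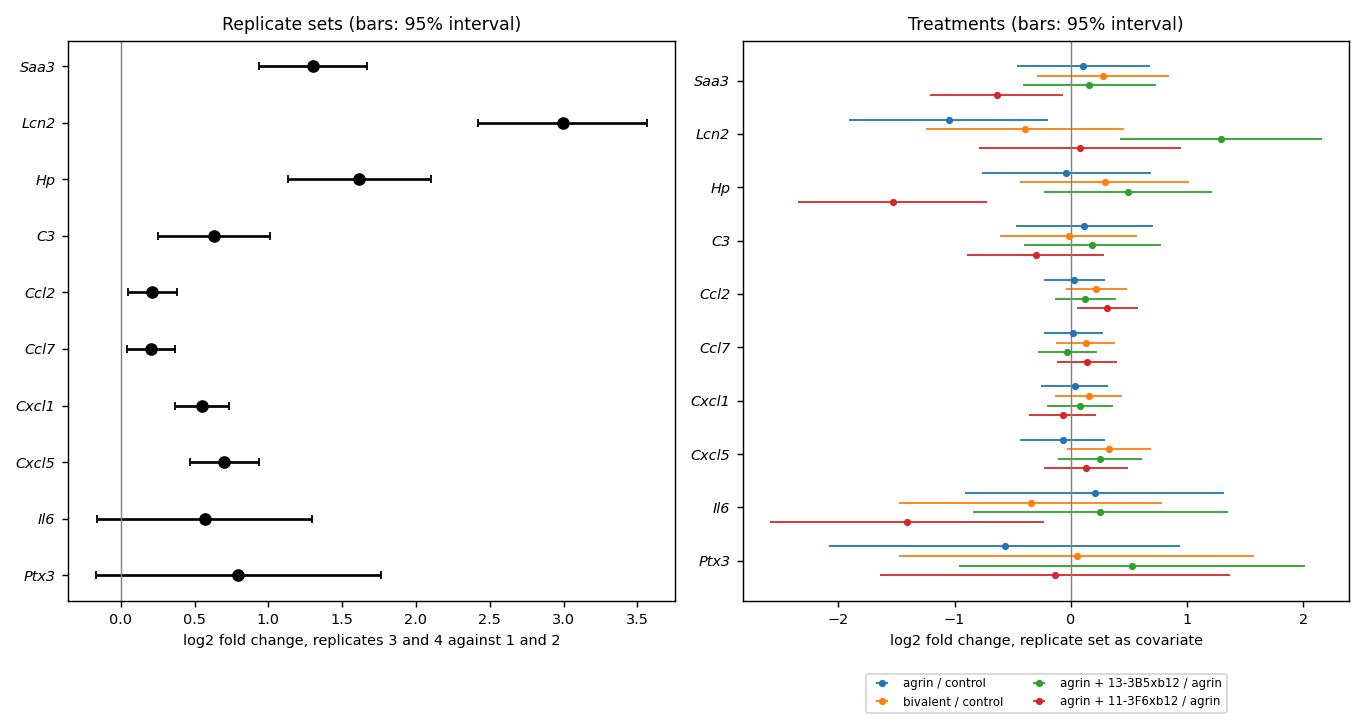
Log2 fold change (x axis) of each gene between replicates 3 and 4 and replicates 1 and 2 (left) and for 4 treatment comparisons with the replicate set as a covariate (right); points are edgeR estimates and bars 95% intervals. On the left all 10 points lie above 0, from 0.21 to 2.99; on the right most intervals cross 0, and that of Hp with agrin and 11-3F6xb12 against agrin runs from -2.34 to -0.72.

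No member was called in any of the 8 treatment comparisons or in the test of any treatment difference by edgeR's quasi-likelihood test with treatment as the only factor. The same was true of all genes tested, of which 0% were called in each. Between 349 and 617 of all genes had an unadjusted p under 0.05 in a single comparison and 329 in the test of any treatment. Of the members, 3 had an unadjusted p under 0.05 in agrin with 11-3F6xb12 against agrin, 2 in that group against control and 2 against agrin with 13-3B5xb12, and 0 in the other comparisons. DESeq2's Wald test also called 0 members in the 8 comparisons. Treatments accounted for 40.8% of the sum of squares in Il6, 35.2% in Hp and 28.2% in Ccl2, and for 4.21% in Cxcl1, with a median of 17.3% over all genes. Without the filter on low counts edgeR called Saa3 and Hp in each comparison of agrin with 11-3F6xb12 and Cxcl5 in bivalent 13-3B5 against agrin, but that fit assigned each gene 392850 degrees of freedom (15.3 for Saa3 and Cxcl5 and 16.3 for Hp with the filter). It thus used 1 spread shared by 26190 genes in place of a gene's own spread between libraries, and nothing is read from these calls.

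Hp had a mean of 0.926 ± 0.645 CPM with agrin and 11-3F6xb12 against 4.15 ± 2.84 CPM with agrin and 13-3B5xb12 (SD, n = 4 each). The highest of the former libraries and the lowest of the latter both lay at 1.88 CPM, so the groups met without overlap, as 1.27% of all genes did in this direction. With treatment alone in the model the log2 fold change was -2.15 (95% interval -3.78 to -0.51) at an edgeR adjusted p of 0.992 and an unadjusted p of 0.0132. With the replicate set as a covariate it was -2.03 (95% interval -2.83 to -1.22) at an edgeR adjusted p of 0.0313, where 0.0685% of all genes were called. This p is not independent evidence, because Hp was chosen for its spread over these same libraries and the covariate was defined from the data. The value was -1.52 within replicates 1 and 2 and -2.41 within replicates 3 and 4, with 2 libraries a side. The other 9 members lay between -1.73 (Il6) and 0.20 (Ccl2) with treatment alone, and with the covariate 0 of them passed.

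The differences of Hp between agrin with 11-3F6xb12 and the agrin and control groups did not pass. Against agrin (3.10 ± 2.32 CPM, SD, n = 4) the log2 fold change was -1.73, or -1.53 with the covariate, at edgeR adjusted p-values of 1.00 and 0.654. Against control (3.06 ± 2.21 CPM, SD, n = 4) it was -1.70, or -1.57 with the covariate, at edgeR adjusted p-values of 1.00 and 0.642. Within replicates 1 and 2 these were -0.77 and -1.02, and within replicates 3 and 4 they were -2.07 and -1.98. With the covariate 0.0137% and 0.0205% of all genes were called in these comparisons and 0 members. The agrin library of replicate 3 held transcripts of liver genes, described below with the cell type markers.

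Il6 had its lowest mean with agrin and 11-3F6xb12. The values there were 0.290, 0.297, 0.546 and 0.334 CPM in replicates 1, 2, 3 and 4, from 6 to 12 counts a library. With agrin it was at 0.50, 1.08, 1.10 and 1.25 CPM, and in the control at 0.763, 0.976, 1.12 and 0.407 CPM. The ranges of the groups overlapped, with the highest 11-3F6xb12 library above the lowest of each other group. The log2 fold change against agrin was -1.40 with treatment alone and -1.41 with the covariate (unadjusted p = 0.0219 and 0.0203; edgeR adjusted p = 1.00 and 0.902). It was -1.41 within replicates 1 and 2 and -1.41 within replicates 3 and 4. Against control it was -1.14, or -1.20 with the covariate, and -1.55 and -0.79 within the 2 replicate sets (edgeR adjusted p = 1.00 and 0.995 for the first 2 values).

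Ccl2 had its highest mean with agrin and 11-3F6xb12, from the libraries of replicates 3 and 4. With agrin and 11-3F6xb12 it was at 82.3, 85.6, 134 and 121 CPM, and with agrin alone at 87.8, 79.1, 85.5 and 83.4 CPM. Its replicate 3 and 4 libraries were the highest 2 of all 20 for Ccl2, while replicates 1 and 2 lay within the agrin range. The log2 fold change against agrin was 0.33 (0.31 with the covariate; unadjusted p = 0.0337, edgeR adjusted p = 1.00), made up of 0.01 within replicates 1 and 2 and 0.59 within replicates 3 and 4. The difference between these last 2 values did not pass (edgeR adjusted p = 1.00, unadjusted p = 0.0107). Against control the value was 0.36, or 0.34 with the covariate, and 0.12 and 0.54 within the replicate sets (edgeR adjusted p = 1.00 and 0.943 for the first 2 values). Ccl7, the neighbour of Ccl2, was also highest of the 5 treatments with 11-3F6xb12 in replicate 3 (87.3 CPM) and replicate 4 (88.5 CPM).

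**Figure D3:**
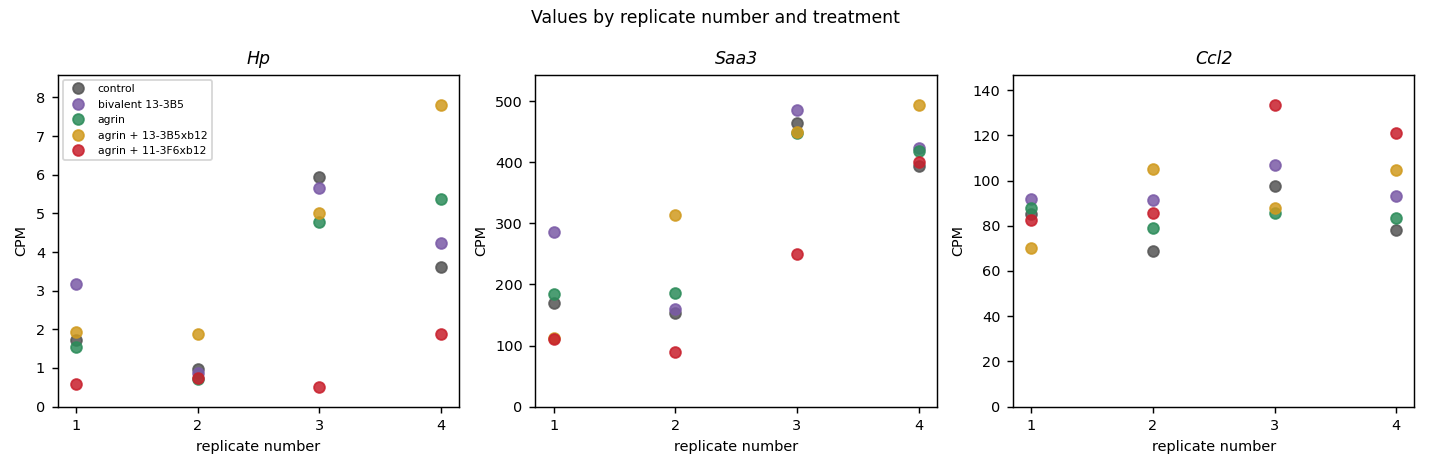
CPM (y axis, linear from 0) of Hp, Saa3 and Ccl2 by replicate number (x axis), with 1 point per library coloured by treatment. Agrin with 11-3F6xb12 (red) is the lowest treatment for Hp in replicates 1, 3 and 4 and the highest for Ccl2 in replicates 3 and 4.

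Saa3 was lowest with agrin and 11-3F6xb12 in replicates 1, 2 and 3 and next to lowest in replicate 4. The group mean was 212 ± 145 CPM, and the other 4 group means lay between 295 and 343 CPM (SD, n = 4 each). With the covariate its log2 fold change against agrin had a 95% interval of -1.21 to -0.07 and an edgeR adjusted p of 0.951. The interval is not independent evidence, because Saa3 was chosen for its spread over these same libraries. The covariate was also defined from the data.

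In the comparison of agrin with control 0 members passed. The smallest p-values belonged to Lcn2, C3 and Il6: against control, Lcn2 had a log2 fold change of -0.79 (-1.05 with the covariate), C3 of 0.20 (0.12) and Il6 of 0.27 (0.20), with edgeR adjusted p-values of 1.00 for each with treatment alone and 0.999 for each with the covariate. No fold within replicates 1 and 2 is given for Lcn2, since both agrin libraries there were at the detection limit; within replicates 3 and 4 it was -0.69. C3 was at -0.32 within replicates 1 and 2 and 0.53 within replicates 3 and 4, and Il6 at -0.14 and 0.62. With the covariate the 95% intervals of the chemokines were -0.23 to 0.29 for Ccl2, -0.23 to 0.28 for Ccl7, -0.25 to 0.32 for Cxcl1 and -0.43 to 0.29 for Cxcl5.

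Bivalent 13-3B5 had the highest mean of Cxcl5, 536 ± 140.5 CPM against 431 ± 132 CPM in the control and 409 ± 119 CPM with agrin (SD, n = 4 each). The ranges overlapped. The log2 fold change against control was 0.31, or 0.33 with the covariate (edgeR adjusted p = 0.999 and 0.983), and 0.40 and 0.26 within the 2 sets. Against agrin it was 0.39, or 0.40 with the covariate (edgeR adjusted p = 1.00 for both), and 0.42 and 0.37 within the 2 sets. Ccl2 was at 91.7, 91.6, 107 and 93.2 CPM with bivalent 13-3B5, which put all 4 libraries above the 4 of agrin, as was the case for 1.16% of all genes. Its log2 fold change was 0.19 against agrin and 0.22 against control (edgeR adjusted p = 1.00 and 0.999), with covariate values of 0.19 and 0.22. Within replicates 1 and 2 these were 0.14 and 0.25, and within replicates 3 and 4 they were 0.24 and 0.19. Ccl7 against control and Il6 against agrin came next by p, at 0.12 (0.13 with the covariate) and -0.56 (-0.55), with edgeR adjusted p-values of 0.999 and 1.00. Within the 2 sets Ccl7 was at 0.22 and 0.04, and Il6 at -0.47 and -0.62.

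With 13-3B5xb12 added to agrin, 0 members passed against agrin or control. Lcn2 in replicates 1 and 2 was at 1.32 and 1.24 CPM (29 and 23 counts), against 3 counts in each of the 2 agrin libraries, whereas in replicates 3 and 4 it was at 3.99 and 5.85 against 3.88 and 3.37 CPM. Its log2 fold change was 0.71, or 1.29 with the covariate (unadjusted p = 0.546 and 0.00494; edgeR adjusted p = 0.999 and 0.921), and 0.44 within replicates 3 and 4. The covariate value rests in part on the agrin libraries at 3 counts, the limit of detection. Its p is not independent evidence, because Lcn2 was chosen for its spread over these same libraries. Ccl2 and Cxcl5 had log2 fold changes of 0.13 and 0.21 against agrin (edgeR adjusted p = 0.999 for both), of 0.13 and 0.25 with the covariate, of 0.07 and 0.40 within replicates 1 and 2, and of 0.19 and 0.08 within replicates 3 and 4. Against control, Il6 had 0.59 (0.46 with the covariate), Ccl2 0.16 (0.16) and C3 0.28 (0.30), each at an edgeR adjusted p of 1.00 with treatment alone and with the covariate. Il6 was at -0.41 within replicates 1 and 2 and 1.23 within replicates 3 and 4, Ccl2 at 0.18 and 0.14, and C3 at 0.40 and 0.18. The replicate 1 library of this group was the lowest of all 20 for Ccl7 (44.2 CPM), while its replicate 2 library was the highest of the 10 in replicates 1 and 2 for Saa3, Ccl2, Ccl7, Cxcl1 and Cxcl5.

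A test of whether the difference between replicate sets itself differed among treatments called 0 members by edgeR (0.00685% of all genes), with 709 of all genes at an unadjusted p under 0.05. Lcn2 was the member with the smallest p (unadjusted p = 0.0118, adjusted p = 0.966). This p is not independent evidence, because Lcn2 was chosen for its spread over these same libraries. It also rests in part on libraries near the limit of detection. The log2 difference of Lcn2 between the sets was 2.95 under the control antibody, 1.93 with agrin and 13-3B5xb12 and 2.46 for bivalent 13-3B5. No fold is given for the agrin and the agrin with 11-3F6xb12 groups, whose lower libraries held 3 to 5 counts.

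Over the 20 libraries the highest correlations joined the CXC chemokines with each other and with Saa3, the CC chemokines with each other, and Ccl7 with Cxcl1. Correlations were taken on log2 CPM after subtracting the mean of each replicate set, so that the division described above does not enter them; they are descriptions over 20 libraries that share 5 treatments and 4 replicate numbers. Of the 45 pairs, 34 were positive and 15 were above 0.5, with a median Pearson r of 0.368. Each member's median r with all other genes lay between -0.03 and 0.02. The 95th percentile of these values ran from 0.36 for Il6 to 0.60 for Ccl7, and was 0.52 for both Cxcl1 and C3. An r above 0.5 was thus not rare for these last 3 members, and the share of all gene pairs above 0.5 was not counted. The highest pair was that of the CXC chemokines Cxcl1 and Cxcl5 (r = 0.79, Spearman rho 0.76). Saa3 with Cxcl1 had r = 0.77 (rho 0.77), Ccl2 with Ccl7 had r = 0.73 (rho 0.74) and Ccl7 with Cxcl1 had r = 0.71 (rho 0.51). Saa3 with Cxcl5 had r = 0.68 (rho 0.53) and Saa3 with Hp had r = 0.66 (rho 0.65). Without the 2 libraries farthest from the median of the first gene these 6 values were 0.69, 0.63, 0.79, 0.53, 0.48 and 0.70. Cxcl5 with Ccl2 and with Ccl7 had r = 0.62 each. Lcn2 went with C3 (r = 0.65, rho 0.58) and with Hp (r = 0.59, rho 0.61).

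The values were not alike in the 2 replicate sets of 10 libraries, a difference that was not tested. In replicates 1 and 2 the median r of the 45 pairs was 0.455, and Saa3 moved with all 4 chemokines (r from 0.59 with Ccl2 to 0.84 with Cxcl5). In replicates 3 and 4 the median was 0.206. Saa3 was there close to Hp (r = 0.95 against 0.62 in replicates 1 and 2), and both had negative r with the CC chemokines. Saa3 had r = -0.50 with Ccl2 and -0.60 with Ccl7, and Hp had r = -0.65 and -0.75, against 0.27 and 0.01 for Hp in replicates 1 and 2. In replicates 3 and 4 the agrin with 11-3F6xb12 libraries were the highest for Ccl2 (134 and 121 CPM) and Ccl7 (87.3 and 88.5 CPM). They were also the lowest for Hp (0.501 and 1.88 CPM), with Saa3 at 250 and 401 CPM. The negative values cannot be separated from this 1 treatment, as r without it was not computed. Over all 20 libraries Hp with Ccl2 had r = -0.34, and 0.03 without replicates 1 and 3 of agrin with 11-3F6xb12. Subtracting treatment means as well brought the median of all pairs to 0.230 and Saa3 with Hp to 0.31. Ccl2 with Ccl7 stayed high in both sets (0.85 and 0.77), as did Cxcl1 with Cxcl5 (0.87 and 0.58), whereas Ccl7 with Cxcl1 was at 0.84 and -0.03.

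**Figure D4:**
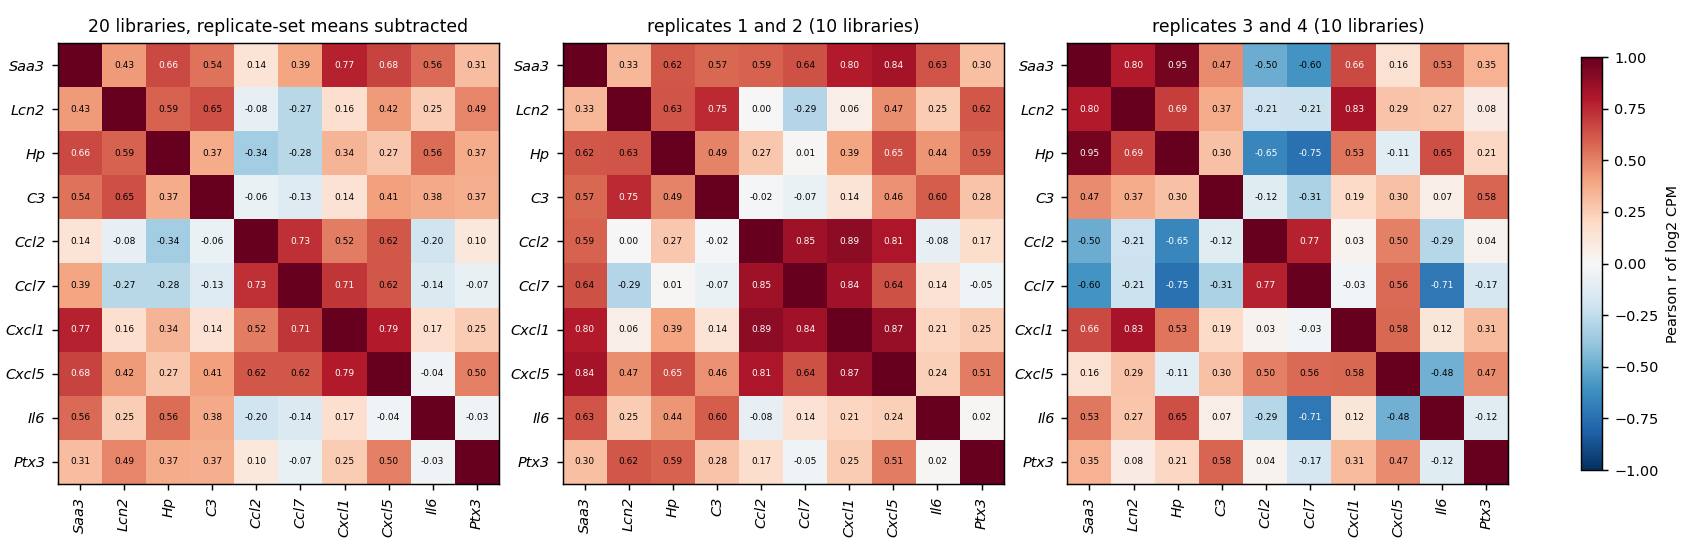
Pearson r of log2 CPM between the 10 genes (both axes) over 20 libraries after subtracting the mean of each replicate set (left), over the 10 libraries of replicates 1 and 2 (middle) and over those of replicates 3 and 4 (right); red is positive and blue negative. The chemokine block is red in the left and middle panels, and in the right panel Hp is blue with Ccl2 (-0.65) and Ccl7 (-0.75).

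Searching the 11148 other genes with a mean log2 CPM above 1 for the profile most like a member, by r after subtraction of the set means over 20 libraries, gave Fmo1 (0.84), Gm22009 (0.83) and Tspan11 (0.79) for Saa3. For Lcn2 they were Shisa2 (0.80), Smurf1 (0.79) and Retreg2 (0.77), and for Hp they were Gda (0.78), Slc16a1 (0.76) and Ier5 (0.76). Itm2b (0.80), Antxr2 (0.76) and Fcgrt (0.75) were nearest to Ccl2. The likeness to Saa3 rested on replicates 1 and 2, where Fmo1 had r = 0.96 against 0.28 in replicates 3 and 4. That to Lcn2 was also weaker in replicates 3 and 4, with Shisa2 at 0.92 against 0.36, Smurf1 at 0.88 against 0.47 and Retreg2 at 0.90 against 0.39. Gda kept its likeness to Hp in both (0.83 and 0.77), and so did Itm2b to Ccl2 (0.76 and 0.82). Among all 14604 other genes, Cxcl1 ranked 2 in likeness to Cxcl5, Ccl7 ranked 9 for Ccl2 and Cxcl1 ranked 10 for Saa3. These are among the best ranks of a member, and many others were far lower. Ccl2 ranked 176 for Ccl7, Lcn2 ranked 550 for Saa3, Saa3 ranked 1128 for Lcn2 and Ccl2 ranked 13610 for Hp.

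The wider inflammatory programme was read from 9 lists of other genes, in the comparison of replicates 3 and 4 with replicates 1 and 2 by edgeR with adjustment over all genes. In this contrast 5.93% of all genes tested were called higher and 7.13% lower, against which each count is to be set. In the C/EBP and STAT3 arm 8 of 15 tested genes were higher and 0 lower: Timp1, an inhibitor of matrix metalloproteases (log2 fold change 0.52), Socs3, a feedback inhibitor of cytokine receptors (0.51), and the transcription factors Cebpd (0.51) and Cebpa (0.42) led it. Its median log2 fold change was 0.20 beside 0.01 over all genes. Receptors and adaptors of cytokines had 5 of 19 higher, led by Il1rl1, the interleukin 33 receptor (1.60), Il1r1, the interleukin 1 receptor (0.58), and Osmr, the oncostatin M receptor (0.53), and 1 lower, Lifr (-0.30). Tnfrsf1a, a receptor of tumour necrosis factor, also rose (0.35), as did Il1rap (0.33). Their median was 0.10.

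Cytokines and chemokines outside the set moved in both directions. Of 10 cytokines tested 3 were higher and 2 lower. Il1a, an alarm cytokine, rose from a mean of 0.589 to 2.27 CPM (log2 fold change 1.89), with its lowest library at 0. Il15 fell by 1.03 and Lif by 0.40 on the log2 scale, while Clcf1 rose by 0.37 and Csf1 by 0.19. Of 9 other chemokines tested Cxcl12, a homing factor for stem cells, rose by 0.65, as did Cxcl16 by 0.29 and Cx3cl1 by 0.28, whereas Ccl11, an eosinophil chemokine (-1.25), and Cxcl13, a B cell chemokine (-0.76), were lower; in all 3 were higher and 2 lower. The medians of these lists were 0.15 and 0.11. Tnf (at most 0.416 CPM) and Il1b (0.702 to 3.68 CPM) were low in every library.

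Other acute-phase and complement genes showed no common direction. Of 18 other acute-phase genes 6 were tested, and Cp, the copper carrier ceruloplasmin, rose (mean 793 to 1025 CPM, log2 fold change 0.37), while Lbp, which binds bacterial lipopolysaccharide, fell by 0.42 on the log2 scale; the median was -0.29. Fibrinogen and orosomucoid genes were too low to test. Of 15 complement genes 5 were tested, with C1ra higher (0.41) and the complement inhibitor Cd55 lower (-0.18) and a median of 0.08. Of 17 receptors for the members 7 were tested. The interleukin 6 receptor Il6ra rose by 0.46 and Tlr2, a receptor reported to bind serum amyloid A, was lower (-0.63), with a median of 0.11. The chemokine receptors Ccr2 (at most 0.0418 CPM) and Cxcr2 (at most 0.0483 CPM), which answer the CC and CXC members, had at most 1 count in a library.

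Genes of the NF-kappa B system were called in both directions, with small changes. Of 21 tested factors and feedback regulators 4 were higher (Nfkbib 0.52, Nfkbiz 0.27, Map3k14 0.20 and Nfkb1 0.15) and 0 lower, with a median of 0.04. Of 10 tested other targets Ch25h (0.48) and Sod2 (0.32) were higher and Gbp2 (-0.49), Ptgs2 (-0.33) and Vcam1 (-0.15) lower, with a median of -0.10. In the 8 treatment comparisons, where 0% of all genes were called, 0 genes of these 9 lists passed. The lists were drawn up with the behaviour of the members known.

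**Figure D5:**
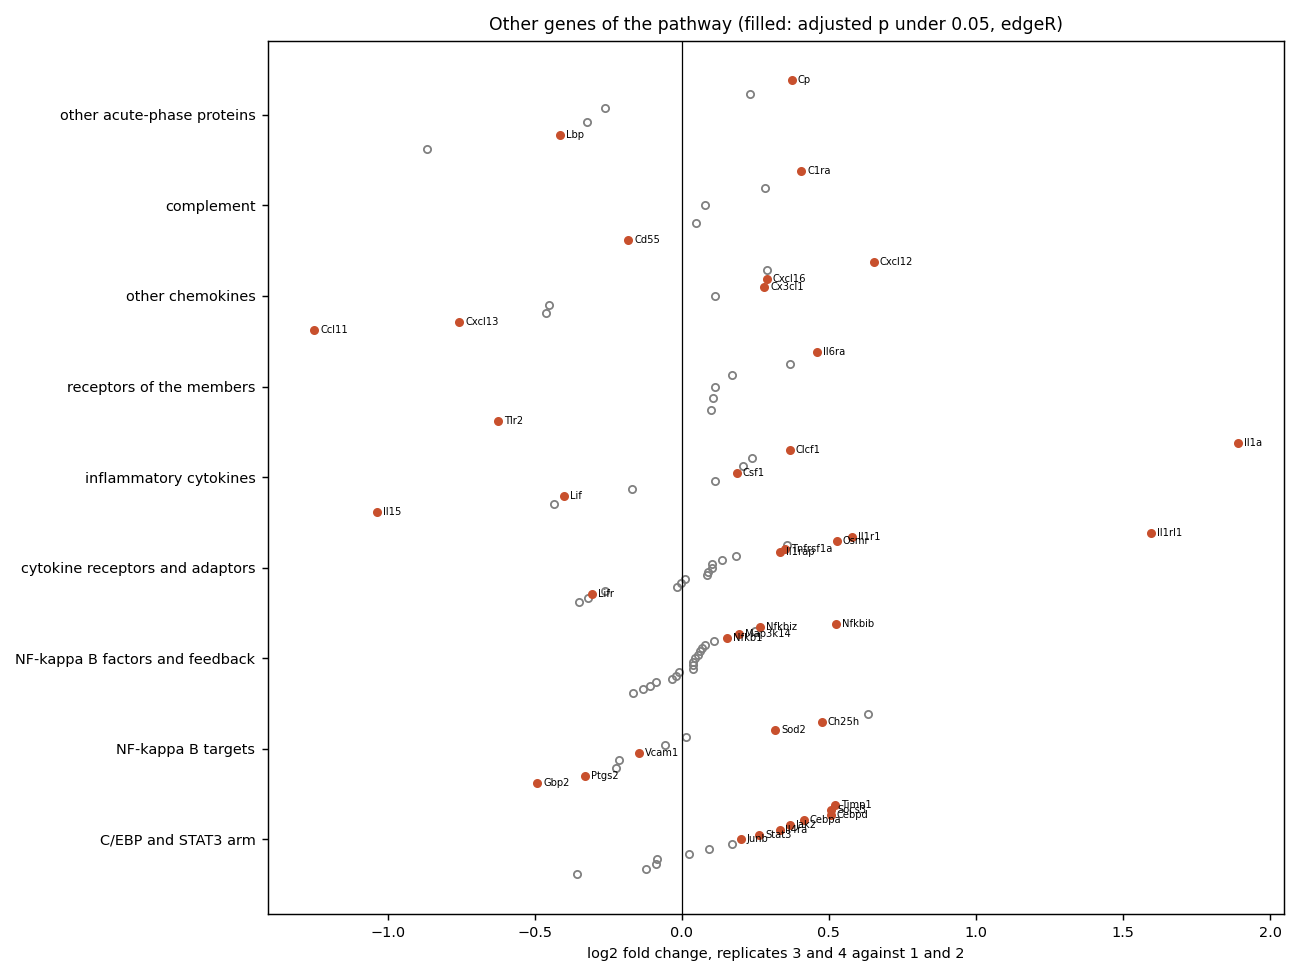
Log2 fold change between replicates 3 and 4 and replicates 1 and 2 (x axis) of each tested gene in 9 lists of other inflammatory genes (y axis, sorted within a list); filled points have an edgeR adjusted p under 0.05 and are named. In the C/EBP and STAT3 arm 8 filled points lie right of 0 and 0 left of it, the NF-kappa B factors have 4 on the right alone, and the other 7 lists have filled points on both sides.

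Markers of cell types also differed between the replicate sets, and their part in the member values was not tested. In these bulk samples fewer cells of a type and less RNA per cell cannot be told apart. The 12 myotube markers were abundant in every library (summed 15188 to 17194 CPM in replicates 1 and 2 and 13074 to 16222 CPM in replicates 3 and 4). Of them 3 were called lower in replicates 3 and 4, Ckm (-0.72), Tnnt3 (-0.43) and Tnnc2 (-0.40). None was called higher and 9 were not called, with a median of -0.06. Of all genes tested 5.93% were called higher and 7.13% lower in this contrast. Of 7 myoblast and reserve cell markers Sdc4 (0.36), Cdh15 (0.30) and Itga7 (0.16) were higher and Vcam1 (-0.15) lower (sums of 2198 to 2407 and 2483 to 2720 CPM). The other 3, Pax7, Myf5 and Myod1, were not called, and most of each sum was Itga7 (mean 1595 CPM). Of 9 fibroblast markers 5 were lower and 0 higher, led by Col1a1 (-0.75), Lum (-0.37), Mfap5 (-0.25), Postn (-0.18) and Col3a1 (-0.16), with sums of 6489 to 7822 and 5823 to 7120 CPM. Macrophage and leukocyte markers summed to 5.82 to 11.9 and 7.82 to 13.6 CPM, most of it Cd14 (4.10 to 10.4 CPM). Of these 3 were tested and 0 called by edgeR (2 at an unadjusted p under 0.05), and Ptprc and Adgre1 stayed at or under 0.143 and 0.0905 CPM. Of 3 adipocyte markers in the table Plin1 was at 0 in every library and the sums were 3.43 to 7.06 and 3.50 to 7.53 CPM.

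Liver markers stood out in a single library. The 11 in the table summed to 21.6 CPM in agrin replicate 3 and to at most 0.633 CPM in the other 19 libraries, and Alb was at 5.31 CPM there. Hp, a gene highly expressed in liver, was at 4.77 CPM in that library and at 5.37 CPM in agrin replicate 4. C3 had its highest value of all 20 in that library (148 CPM). Without it the log2 fold change of C3 between agrin and control turned from 0.20 to -0.11, and the part of the liver transcripts in this was not tested. The first principal component held 20.98% of the variance and separated the replicate sets. The second held 14.4% and set apart replicate 1 of agrin with 13-3B5xb12 and replicate 2 of control, the libraries lowest in Ccl7 and in Cxcl1. Without both, C3, Cxcl1 and Cxcl5 were again called higher in replicates 3 and 4 by edgeR, and Ccl2 and Ccl7 were not.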

How the data were processed

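Per the labels' protocols, 20 total RNA libraries of C2C12 myotubes were made with TruSeq Stranded Total RNA and Ribo-Zero and read as pairs on a NovaSeq. The deposited table holds whole-number counts per gene and library, not normalized. Per the submitters' processing notes, Trim Galore 0.6.6, cutadapt 2.10, STAR 2.7.6a, HTSeq 0.12.4, DESeq2 1.32.0 and the build GRCm38 were used; their settings, including the use of strand, are not given in the sources used here. Of 26722 gene IDs 26667 matched GENCODE M21; members were matched by symbol.

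The members and gene lists were chosen with earlier results of these data known. The tests used edgeR 4.0.16 in R 4.3.3: filterByExpr (minimum count 10, minimum total 15), TMM factors, robust quasi-likelihood fits over 20 libraries with treatment alone (15 residual degrees of freedom), two-sided F-tests and Benjamini-Hochberg adjustment over 14605 genes at 0.05. Further fits had the replicate set (replicates 1 and 2, or 3 and 4) as a covariate (14 degrees of freedom), from which the set difference also comes, or the 10 combinations of treatment and set (10 degrees of freedom), from which the within-set values come. The script was tested on simulated data. Intervals are 95%, and log2 CPM used a prior count of 2. No pair of libraries of a treatment agreed within sampling noise (chi-square per gene at least 5.17). In a treatment comparison, fold changes are given for members passing the test with treatment alone or with a replicate block, otherwise for the up to 3 with the smallest p, and from each list for the 4 called genes with the largest change. Further called genes of a list, and other genes and values named, were chosen after they were seen. Alternatives were a replicate block, DESeq2 1.42.0, its size factors, other filters, fits of 2 groups, and leaving out libraries. Total counts were 18424881 to 23343903 per library, and the limit of 3 counts covers counting error only.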

Additional observations from a re-analysis of the deposited data

Results flagged for a closer look

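Of the 50 groups of 4 libraries (10 genes in 5 treatments), 3 had 1 library far from the other 3 by Dixon's test. For 4 draws from 1 normal distribution, chance flags about 1 in 20, or 2.5 of 50. Each group here mixes 2 replicate sets that differ for several of these genes, and the genes are correlated. That number is therefore not a valid expectation, and nothing is read from the count. Ccl2 with bivalent 13-3B5 was at 106.9 CPM in replicate 3, while the other libraries lay between 91.6 and 93.2 CPM. Cxcl5 with agrin and 13-3B5xb12 was at 299 CPM in replicate 1, while the others lay between 521 and 546 CPM. Ptx3 with bivalent 13-3B5 was at 1.89 CPM in replicate 3, while the others lay between 0.501 and 0.576 CPM.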

How the results depend on the processing

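The number of members called was 0 in the 8 treatment comparisons and in the test of any treatment under most alternatives. For agrin with 11-3F6xb12 against agrin with 13-3B5xb12 it was 1 (Hp) with a replicate block or with the replicate set as a covariate, and 2 without the filter on low counts. Without that filter it was also 2 for agrin with 11-3F6xb12 against agrin and against control, 2 for any treatment and 1 for bivalent 13-3B5 against agrin. The unfiltered fit shared 1 spread over 26190 genes (392850 degrees of freedom), which removes a gene's own replicate error, and it called between 7 and 50 of all genes there. Leaving out any 1 library gave 0 in each. With the replicate block Hp had a log2 fold change of -2.04 (edgeR adjusted p = 0.0337), and 0.0342% of all genes were called (5 genes). The block changed no other call of a member. The replicate numbers were not shown to pair libraries: deviations from group means correlated over 0.1 in 33 of 40 same-numbered pairs (mean r = 0.195, lowest 0.00824), and in 34 of 40 pairs of the same replicate set with another number (mean r = 0.201). Within replicates 1 and 2, 3 fold changes turned: C3 and Il6 in agrin against control to -0.32 and -0.14, and Il6 in agrin with 13-3B5xb12 against control to -0.41. Leaving out 1 library, Lcn2 in agrin against control ranged from -1.41 to 0.068 (without control replicate 3) and C3 from -0.11 (without agrin replicate 3) to 0.39; the cause was not tested. For replicates 3 and 4 against replicates 1 and 2, between 5 and 8 members were called, a count that includes Saa3, Lcn2 and Hp, whose values chose them. The median correlation of the 45 pairs was 0.589 without subtraction of set means and 0.230 with treatment means subtracted too, against 0.368, and 0.279 to 0.392 leaving out 1 library. Without replicate 1 of agrin with 13-3B5xb12 and replicate 2 of control, left out after seeing the data, Saa3 with Cxcl1 had r = 0.88 and Lcn2 with Cxcl1 had 0.76, against 0.16 in all 20. Il6, Ptx3 and the lower Lcn2 libraries rest on few counts.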
